A study of Mus musculus with 36 samples.

Results

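Kidneys of control mice of the Pkd1 line were compared between postnatal day 7 (P7) and postnatal day 3 (P3) by microRNA sequencing. The comparison used 6 of the 36 libraries of the study, chosen by their labels, with 3 libraries at each age. The control animals, called WT, were Pkd1f/f mice on a C57BL/6 background that carried no Cre, so both copies of Pkd1 were floxed but intact. Their littermates, called KO, were Pkd1f/f:HoxB7-Cre mice, in which the HoxB7 promoter drives Cre in the ureteric bud lineage that forms the collecting duct. The study also holds kidneys of both genotypes at postnatal day 1 (P1), and the same groups of a Pkd2f/f line, with 3 libraries in each of the 12 groups. Sex and sequencing batch are not in the labels, which also do not say whether each library came from 1 animal, so p-values measure the spread between these libraries. Of 1915 mature miRNAs in the table, 706 passed the rule of at least 10 counts in at least 3 of the 18 Pkd1-line libraries and were tested.

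A microRNA is cut from a hairpin precursor, and one strand of the resulting duplex, the 5p or 3p arm, is loaded into an Argonaute protein and represses messenger RNAs that pair with its seed, bases 2 to 8 of its 5′ end. miRNAs that share a seed are grouped into families, since they can pair with the same sites. In the mouse, new nephrons form from progenitor cells until a few days after birth, and tubules then lengthen and mature, so the interval from P3 to P7 covers the end of nephron formation. The miR-17/92 cluster and its paralogs are known for their role in proliferating progenitor cells, miR-192 and miR-30 for expression in tubule epithelium, and let-7 for its rise during differentiation in many tissues. Whole kidneys were used, so fewer cells of a type and less of a miRNA per cell cannot be told apart.

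The mature sequences of the miRNAs on which the results turn are printed here from RefSeq (GRCm38.p6), with the seed in capitals. The first set is the miR-378 family, which holds the clearest rise.
miR-378b: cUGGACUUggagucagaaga
miR-378c: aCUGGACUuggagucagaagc
miR-378d: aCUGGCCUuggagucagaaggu
Within the first 21 bases, counted from 1 at the 5′ end, miR-378d differs from miR-378c by A6C and C21G, with the miR-378c base written first. The change at base 6 lies in the seed, so the printed seeds differ between these family members, and that of miR-378b is moved by 1 base because its sequence starts 1 base later.

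The second set shows members of shared-seed families that moved in opposite directions. miR-195a-5p and miR-497a-5p come from neighbouring hairpins, Mir195a at chr11:70235042-70235135 and Mir497 at chr11:70234717-70234800 (GRCm38, both on the plus strand, outside other annotated genes), and share a seed with miR-16-5p. miR-32-5p (Mir32, chr4:56895229-56895298, minus strand, in an intron of Tmem245) shares its seed with miR-92a-3p and miR-25-3p of the miR-17/92 cluster and its paralogs.
miR-195a-5p: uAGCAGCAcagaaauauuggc
miR-497a-5p: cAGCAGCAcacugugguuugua
miR-16-5p: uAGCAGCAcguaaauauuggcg
miR-32-5p: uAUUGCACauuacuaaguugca
miR-92a-3p: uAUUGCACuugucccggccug
miR-25-3p: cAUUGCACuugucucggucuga

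The third set shows both arms of the miR-101a hairpin (Mir101a, chr4:101346945-101347027, minus strand, in an exon of the lincRNA E130102H24Rik), which were called in opposite directions, and then a tubule miRNA, miR-192-5p, and miRNAs whose rises and falls were called in all 6 fits that left out 1 library.
miR-101a-3p: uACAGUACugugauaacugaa
miR-101a-5p: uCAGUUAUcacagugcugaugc
miR-24-3p: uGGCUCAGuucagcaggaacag
miR-148a-3p: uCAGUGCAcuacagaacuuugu
miR-192-5p: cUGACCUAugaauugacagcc
miR-25-5p: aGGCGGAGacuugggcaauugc
miR-92a-1-5p: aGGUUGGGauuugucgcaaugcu
miR-130b-3p: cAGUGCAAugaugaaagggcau
miR-335-3p: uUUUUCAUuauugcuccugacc

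The 6 libraries held 16353014 to 27126851 counts. The pair miR-10a-5p and miR-10b-5p took 57.4%, 63.8% and 37.3% of the counts at P3 and 79.9%, 81.0% and 57.9% at P7, so the ages overlapped. The mean share was 52.9% ± 13.8 (SD, n = 3) at P3 and 72.9% ± 13 at P7, a difference of 20.1 percentage points (exact two-sided permutation p = 0.2, where 0.1 is the smallest p that 3 against 3 libraries can give). Levels are given as counts per 1000000 after scaling by trimmed mean of M values (TMM), written CPM, and TMM factors were 1.13 to 1.97 at P3 and 0.471 to 0.957 at P7. The effective library sizes behind CPM, totals multiplied by these factors, were 22905174 to 53391938 at P3 and 8028519 to 20836515 at P7. Equal counts therefore give a higher CPM at P7 than at P3, which matters most for rare miRNAs. With library totals alone, without TMM, the median log2 change of all 706 miRNAs was -1.27 in place of -0.01, and 22 of the 44 rises below became negative. Changes are therefore relative to the median miRNA.

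At P7, 102 of 706 miRNAs (14.4%) passed an adjusted p of 0.05 (edgeR's quasi-likelihood test, Benjamini-Hochberg adjustment over all 706), of which 44 (6.23%) were higher and 58 (8.22%) lower than at P3. An unadjusted p under 0.05 was obtained for 204 miRNAs (28.9%). The counts of calls in each list below are to be read against the shares of 6.23% and 8.22%. The libraries of the 2 ages did not overlap for 231 of the 706 miRNAs (32.7%) and for 99 of the 102 called, so a lack of overlap adds little to a call. The rises lay among more abundant miRNAs than the falls, with a median level of 37 CPM against 7.08 CPM, and 5.28 CPM over all tested miRNAs. A 2-fold or larger change, 1 or more on the log2 scale, was fitted for 29 of the 44 rises and 30 of the 58 falls. The count of calls was 55, 54 and 48 without P3 replicate 1, 2 and 3, and 56, 78 and 49 without P7 replicate 1, 2 and 3, and 33 miRNAs (14 rises and 19 falls) were called in all 6 of these fits. With miR-10a-5p and miR-10b-5p left out before scaling, the split of calls became 35 higher against 72 lower.

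**Figure D1:**
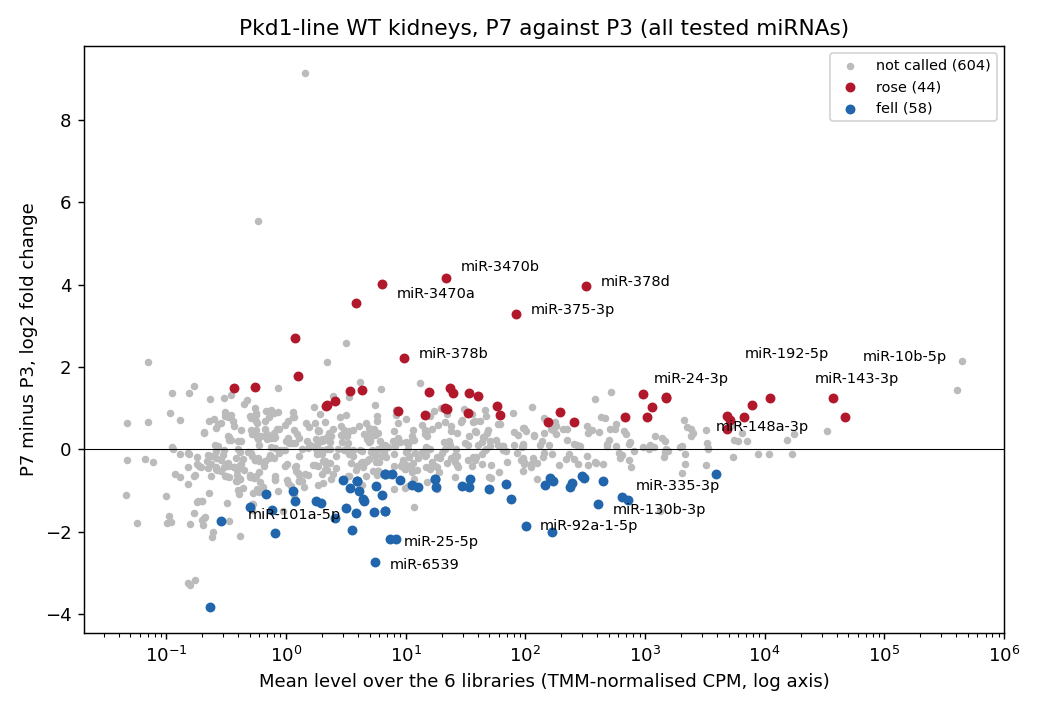
Each point is 1 of the 706 tested miRNAs, with its mean level over the 6 libraries (TMM-normalised CPM, log axis) against its log2 change from P3 to P7; red points rose (44), blue points fell (58) and grey points were not called. miR-378d, at 3.96 on the log2 scale, stands above the other rises of its abundance; on the scale of library totals alone every point moves down by about 1.27.

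The miR-378 family, whose main member lies in an intron of Ppargc1b and is known in the regulation of metabolism, had the strongest single change. miR-378d (Mir378d, chr10:126710282-126710391, minus strand, outside other annotated genes) measured 36.3, 36.5 and 44.2 CPM at P3 and 692, 593 and 541 CPM at P7. Every P7 library was more than 10 times as high as every P3 library, and the log2 change was 3.96 (SE 0.20, adjusted p = 1.34e-09). miR-378b (Mir378b, chr11:88352773-88352864, in an intron of Msi2 on the opposite strand) measured 2.97, 2.88 and 4.51 CPM at P3 and 16.3, 12.5 and 19.2 CPM at P7, a log2 change of 2.21 (SE 0.28, adjusted p = 0.000117). The ages did not overlap for either miRNA, and both were called in all 6 fits that left out 1 library. miR-378c, which shares most of its bases with miR-378d, measured 441, 539 and 533 CPM at P3 and 969, 835 and 791 CPM at P7 (log2 change 0.78, SE 0.16, adjusted p = 0.00588). miR-378a-3p, the most abundant member, rose by 0.49 (SE 0.15, adjusted p = 0.0394), a call that was kept in 1 of 6 fits and had an adjusted p of 0.173 without P7 replicate 1. In all, 4 of 5 tested members rose and none fell, against 6.23% of all miRNAs called higher, with a median log2 change of 0.78. With library totals alone miR-378c and miR-378a-3p turned negative. Members of this family differ by few bases, and reads that carry a sequencing error can be counted for a near-identical member.

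let-7 and miR-29, the other lists chosen for tissue maturation, had 1 call each. Of 22 let-7 family miRNAs tested, 1 rose and none fell, with a median log2 change of 0.21 against -0.01 for all miRNAs. That member was let-7f-5p, at 4947, 4426 and 5449 CPM at P3 and 9080, 7024 and 9455 CPM at P7 (log2 change 0.79, SE 0.15, adjusted p = 0.00425); with library totals it was -0.45, and with a correction for base composition 0.38 (adjusted p = 0.357). Of 6 miR-29 miRNAs 1 rose, with a median log2 change of 1.21. miR-29b-3p, which is known to repress collagen and other matrix genes, measured 2.49, 1.62 and 1.52 CPM at P3 and 4.12, 5.23 and 5.62 CPM at P7. Its log2 change of 1.41 (SE 0.40, adjusted p = 0.0317) was not called without P3 replicate 2 or 3 or P7 replicate 2 or 3 (adjusted p = 0.0926, 0.105, 0.0615 and 0.0934). miR-29a-3p, at 17.5, 9.95 and 15.9 CPM and then 21.3, 26.4 and 39.1 CPM, did not overlap between ages but did not pass the test (adjusted p = 0.090).

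Among miRNAs of the renal tubule, the abundant miR-192-5p and miR-30a-5p rose, and neither call held in all fits that left out 1 library. miR-192-5p, which is enriched in the proximal tubule and kidney cortex, measured 4295, 6283 and 9192 CPM at P3 and 13909, 12366 and 20699 CPM at P7 (log2 change 1.25, SE 0.34, adjusted p = 0.0281). The call was lost without P3 replicate 1 or 2 or P7 replicate 3 (adjusted p = 0.0969, 0.076 and 0.0889), while the log2 change stayed between 1.00 and 1.57. All 7 tested miRNAs of the miR-192, miR-194, miR-215 and miR-802 list had a positive change, with a median of 0.38, but miR-192-5p alone was called. miR-194-5p, which is made from the same primary transcripts as miR-192, measured 176, 326 and 334 CPM at P3 and 281, 257 and 342 CPM at P7 and overlapped between ages (log2 change 0.07, SE 0.28, adjusted p = 0.895). miR-30a-5p, the most abundant called miRNA and a tubule miRNA needed for pronephros development in the frog, measured 32080, 41850 and 30523 CPM at P3 and 68899, 62561 and 48058 CPM at P7 (log2 change 0.78, SE 0.21, adjusted p = 0.0253). Both changes were relative to the median, and miR-30a-5p was at -0.50 with library totals alone. Without P3 replicate 1 or 3 or P7 replicate 1 or 2 the miR-30a-5p call was lost (adjusted p = 0.0784, 0.0975, 0.0856 and 0.0565).

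The miR-30 family otherwise moved both ways, with 1 rise and 2 falls among 11 miRNAs and a median of 0.06. The falls were the less abundant arms, which carry another seed than the family. miR-30c-1-3p (Mir30c-1, in an intron of Nfyc) measured 84.3, 127 and 106 CPM at P3 and 58.7, 53.9 and 24.5 CPM at P7 (log2 change -1.21, SE 0.27, adjusted p = 0.0087). miR-30b-3p measured 14.5, 16.9 and 18.5 CPM and then 9.07, 10.8 and 6.86 CPM (log2 change -0.91, SE 0.24, adjusted p = 0.0258), and was not called without P3 replicate 2 or 3 or P7 replicate 1 or 3 (adjusted p = 0.0601, 0.0929, 0.0643 and 0.0923). Of miR-204 and miR-211, which share a seed and repress genes in epithelia, miR-211-5p rose from 1.37, 1.57 and 1.33 CPM to 3.65, 2.62 and 2.74 CPM (log2 change 1.07, SE 0.27, adjusted p = 0.0215; without P3 replicate 1 or 3 or P7 replicate 1, adjusted p = 0.0632, 0.0734 and 0.0753). The far more abundant miR-204-5p measured 434, 366 and 561 CPM and then 708, 550 and 810 CPM, which overlapped, and was not called (adjusted p = 0.0908).

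The epithelial and positional lists held few calls. The miR-200 family and miR-205, which maintain the epithelial state, had 1 call among 12, and their median log2 change was -0.17. That call was miR-429-5p, a rare arm with 9, 17 and 19 counts at P3 and 0, 0 and 1 counts at P7, for which no fold change is given. It was not called without P3 replicate 2 or P7 replicate 1 or 3 (adjusted p = 0.0571, 0.0604 and 0.0641). The abundant arm miR-429-3p measured 521, 435 and 722 CPM at P3 and 484, 452 and 834 CPM at P7 and overlapped between ages. In the cluster of miR-183, miR-96 and miR-182 1 of 5 rose: miR-182-5p measured 3460, 3900 and 3165 CPM at P3 and 6560, 6447 and 5541 CPM at P7 (log2 change 0.82, SE 0.22, adjusted p = 0.0253). That call was kept only without P3 replicate 2, with adjusted p between 0.0561 and 0.0948 in the other 5 fits, and the sign turned with library totals alone (-0.44). Among 9 miR-10 and miR-196 miRNAs of the Hox clusters none rose and 1 fell. This list does not hold miR-615-5p of the HoxC cluster, whose fall is given below. The fall on the list was the passenger arm miR-196a-1-3p, from 4.37, 4.32 and 4.70 CPM to 2.59, 2.12 and 2.30 CPM (log2 change -0.93, SE 0.30, adjusted p = 0.0475). That arm was called in none of the 6 fits that left out 1 library (adjusted p 0.0865 to 0.127). miR-10b-5p, in the HoxD cluster, measured 170609, 250680 and 73423 CPM at P3 and 934596, 923444 and 332461 CPM at P7. The ages did not overlap, but the change of 2.15 (SE 0.72) did not pass the test (adjusted p = 0.0604; DESeq2 called it, adjusted p = 0.0169). miR-10a-5p, in the HoxB cluster, overlapped between ages (log2 change 1.43, SE 0.58, adjusted p = 0.112).

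In the miR-17/92 cluster and its paralogs the calls were falls: of 25 tested, 6 fell and none rose, against 8.22% of all miRNAs called lower. A positive change was fitted for 7 of the 25, and the median log2 change was -0.35 against -0.01 for all miRNAs. The largest changes were in passenger arms. miR-25-5p (Mir25, chr5:138165321-138165404, minus strand, within Mcm7, which encodes a subunit of the replicative helicase) measured 11, 14.1 and 11.1 CPM at P3 and 3.06, 3.11 and 1.87 CPM at P7 (log2 change -2.19, SE 0.26, adjusted p = 7.97e-05). miR-92a-1-5p (Mir92-1, chr14:115044427-115044506, plus strand, in an exon of the host transcript Mir17hg) measured 133, 193 and 148 CPM at P3 and 51.2, 49.3 and 29.7 CPM at P7 (log2 change -1.87, SE 0.25, adjusted p = 0.000176). No P7 library reached any P3 library for these arms. The guide strand miR-17-5p, which represses inhibitors of the cell cycle, measured 571, 653 and 481 CPM at P3 and 379, 346 and 267 CPM at P7 (log2 change -0.78, SE 0.16, adjusted p = 0.00602). These 3 miRNAs were called in all 6 fits that left out 1 library. The most abundant member, miR-92a-3p, fell from 4387, 4530 and 5295 CPM to 3463, 3249 and 2735 CPM (log2 change -0.59, SE 0.16, adjusted p = 0.0287); without P3 replicate 2 or 3 or P7 replicate 2 or 3 the adjusted p was 0.0571, 0.101, 0.0547 and 0.0769. miR-25-3p, with the same seed, measured 2426, 1865 and 2959 CPM and then 1852, 1597 and 2222 CPM and overlapped (log2 change -0.35, SE 0.23, adjusted p = 0.364).

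miR-32-5p, which carries the seed of miR-92a-3p, moved the other way. It measured 17.2, 14.7 and 24.4 CPM at P3 and 44.3, 44.2 and 57.3 CPM at P7 (log2 change 1.37, SE 0.36, adjusted p = 0.0253). The call was lost without P3 replicate 1 or 2 or P7 replicate 3 (adjusted p = 0.0744, 0.0822 and 0.0686) and under the correction for base composition (0.95, adjusted p = 0.167). At these levels miR-92a-3p was still the far more abundant carrier of the seed at P7.

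miR-130b-3p (Mir130b, chr16:17124061-17124142, minus strand) measured 527, 539 and 686 CPM at P3 and 235, 227 and 239 CPM at P7 (log2 change -1.32, SE 0.20, adjusted p = 0.000773). miR-301b-5p (Mir301b, chr16:17124400-17124496), from the adjoining hairpin in an intron of the same gene, 2610318N02Rik, measured 1.57, 1.35 and 1.05 CPM and then 0.353, 0.249 and 0.336 CPM (log2 change -2.04, SE 0.46, adjusted p = 0.0108; without P7 replicate 3, adjusted p = 0.0561). The 3 values of miR-301b-5p at P7 stand at the floor of 3 counts in a library (0.353, 0.374 and 0.144 CPM) or near it. The abundant arm of that hairpin, miR-301b-3p, measured 196, 279 and 171 CPM at P3 and 197, 194.1 and 104 CPM at P7, which overlapped, and was not called (log2 change -0.38, SE 0.27, adjusted p = 0.407).

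The family of miR-15, miR-16, miR-195 and miR-497, known to restrain the cell cycle, had 1 rise and 1 fall among 15 miRNAs, with a median of -0.12. The rise was miR-195a-5p, from 144, 143 and 123 CPM to 256, 245 and 267 CPM (log2 change 0.90, SE 0.17, adjusted p = 0.00267), which turned to -0.31 with library totals alone. The fall was its neighbour miR-497a-5p, from 166, 192 and 209 CPM to 108, 94.0 and 107 CPM (log2 change -0.88, SE 0.21, adjusted p = 0.0149; without P3 replicate 3, adjusted p = 0.0544). The abundant carrier of their seed, miR-16-5p, measured 4765, 6573 and 6060 CPM at P3 and 5390, 5246 and 4531 CPM at P7 and overlapped (adjusted p = 0.512). Of 8 miRNAs of the miR-34 and miR-449 families, miR-34a-5p, a target of p53, rose from 25.5, 21.4 and 23.1 CPM to 34.3, 51.1 and 86.9 CPM (log2 change 1.30, SE 0.28, adjusted p = 0.00845).

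**Figure D2:**
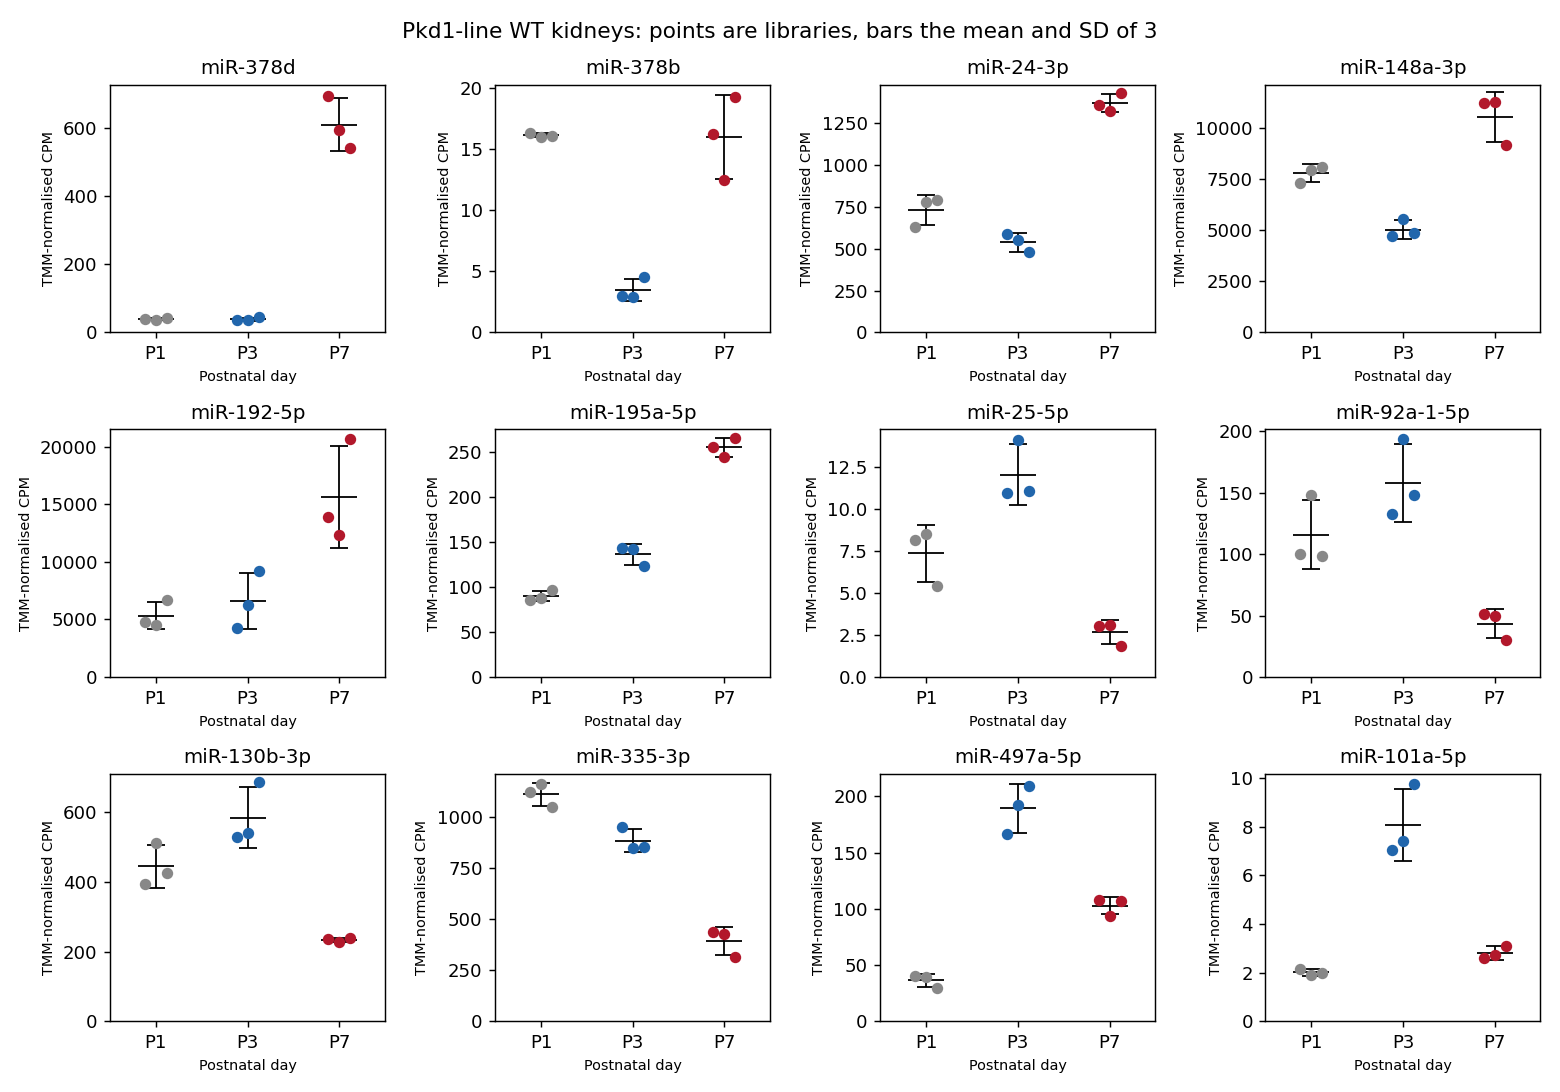
Levels of 12 miRNAs (TMM-normalised CPM, linear axes from 0) in Pkd1-line WT kidneys at P1, P3 and P7, where points are libraries and bars give the mean and SD of 3. miR-378d was flat from P1 to P3 and rose at P7, whereas miR-378b, miR-497a-5p and miR-101a-5p differed between P1 and P3 and then moved back; on the scale of library totals alone miR-195a-5p and miR-148a-3p turned negative from P3 to P7.

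Imprinted loci did not move together in the Pkd1 line. miRNAs hosted by Mest, Igf2 and H19, imprinted genes of fetal growth, had 2 falls and no rise among 6, against 8.22% of all miRNAs called lower. All 6 had a negative change, with a median of -1.03. miR-335-3p (Mir335, chr6:30741299-30741396, plus strand, in an intron of Mest) measured 951, 849 and 856 CPM at P3 and 436, 428 and 316 CPM at P7 (log2 change -1.17, SE 0.16, adjusted p = 0.000208). miR-483-5p (Mir483, chr7:142654924-142654996, minus strand, in an intron of Igf2) measured 5.99, 2.58 and 5.32 CPM at P3 and 1.88, 1.74 and 1.58 CPM at P7 (log2 change -1.42, SE 0.31, adjusted p = 0.00861). Neither overlapped between ages, and both calls held in all 6 fits. In contrast, none of 55 tested miRNAs of the miR-379/410 cluster on chromosome 12 was called, with a median of 0.10, and its most abundant member, miR-411-5p, measured 694, 853 and 942 CPM at P3 and 727, 773 and 913 CPM at P7. Of 23 hairpin arms from the Rtl1 region and around it, miR-370-3p alone was called, falling from 5.77, 6.33 and 5.13 CPM to 2.36, 1.99 and 1.63 CPM (log2 change -1.54, SE 0.42, adjusted p = 0.0281); it was called in none of the 6 fits that left out 1 library (adjusted p 0.054 to 0.103).

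The vascular list gave 2 calls, which were both arms of miR-143, and the stromal list gave 1. miR-143-3p, a miRNA of smooth muscle, pericytes and fibroblasts, measured 20857, 16241 and 28325 CPM at P3 and 43530, 37008 and 75308 CPM at P7 (log2 change 1.25, SE 0.31, adjusted p = 0.0167; without P3 replicate 1 or 2 or P7 replicate 3, adjusted p = 0.0581, 0.0681 and 0.0664). Its passenger arm miR-143-5p fell from 9.91, 9.08 and 8.62 CPM to 6.01, 5.98 and 6.29 CPM (log2 change -0.59, SE 0.18, adjusted p = 0.0406), a call that no fit with 5 libraries kept (adjusted p 0.0825 to 0.111). The vascular list held 6 miRNAs. Among 6 arms of miR-199 and miR-214, which are expressed in mesenchymal cells, miR-214-3p fell from 328, 273 and 344 CPM to 177, 165 and 191 CPM (log2 change -0.83, SE 0.21, adjusted p = 0.0215). Without P3 replicate 1 or 3 or P7 replicate 1 or 2 it was not called (adjusted p = 0.0584, 0.0734, 0.0592 and 0.058).

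Of the blood cell lists, 3 of 7 erythroid and 1 of 12 leukocyte miRNAs rose, against 6.23% of all miRNAs called higher. All 7 erythroid miRNAs had a positive change, with a median of 0.98. miR-486a-5p and miR-486b-5p, listed separately with almost the same counts because they share reads, rose together: miR-486a-5p measured 693, 908 and 1039 CPM at P3 and 2087, 1769 and 2446 CPM at P7 (log2 change 1.26, SE 0.24, adjusted p = 0.00306). The third call, miR-144-5p, measured 10.1, 17.7 and 17.2 CPM at P3 and 29.7, 26.3 and 33.0 CPM at P7 (log2 change 0.98, SE 0.27, adjusted p = 0.0281). It was lost without P3 replicate 1 or 3 or P7 replicate 1 or 3 (adjusted p = 0.0965, 0.0508, 0.0643 and 0.0923). miR-451a, the defining erythroid miRNA, measured 387, 275 and 190 CPM at P3 and 882, 773 and 589 CPM at P7, with no overlap, and was not called (log2 change 1.40, SE 0.55, adjusted p = 0.103). The summed level of the list was 1797 to 2311 CPM at P3 and 4384 to 5594 CPM at P7. The leukocyte call was the myeloid miR-223-3p, from 10, 13.4 and 14.1 CPM to 30.5, 28.3 and 45.9 CPM (log2 change 1.48, SE 0.25, adjusted p = 0.00163), and the summed level of that list overlapped between ages, at 513 to 862 CPM and 747 to 904 CPM. How much blood the kidneys held was not tested.

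miRNAs of other tissues were low. The muscle list summed to 16.2 to 42.7 CPM at P3 and 30.5 to 51.7 CPM at P7, with none of 7 called. miR-122-5p of liver stood at 0.805 to 10.7 CPM at P3 and 0.624 to 7.72 CPM at P7, and the neural list at 197 to 250 CPM and 254 to 276 CPM, with no calls among 2 and 9 miRNAs. The endocrine and pancreatic list summed to 22.6 to 27.2 CPM at P3 and 63.1 to 252 CPM at P7. All 6 of its tested miRNAs had a positive change, from 0.24 to 9.16 with a median of 2.33. Only miR-375-3p, a miRNA of endocrine cells and some epithelia, was called. miR-375-3p measured 13.4, 12.5 and 20.8 CPM at P3 and 53.0, 223 and 181 CPM at P7 (log2 change 3.29, SE 0.98, adjusted p = 0.0383). The P7 libraries spread widely, and the call was kept only without P7 replicate 1 (adjusted p 0.0841 to 0.115 in the other 5 fits).

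**Figure D3:**
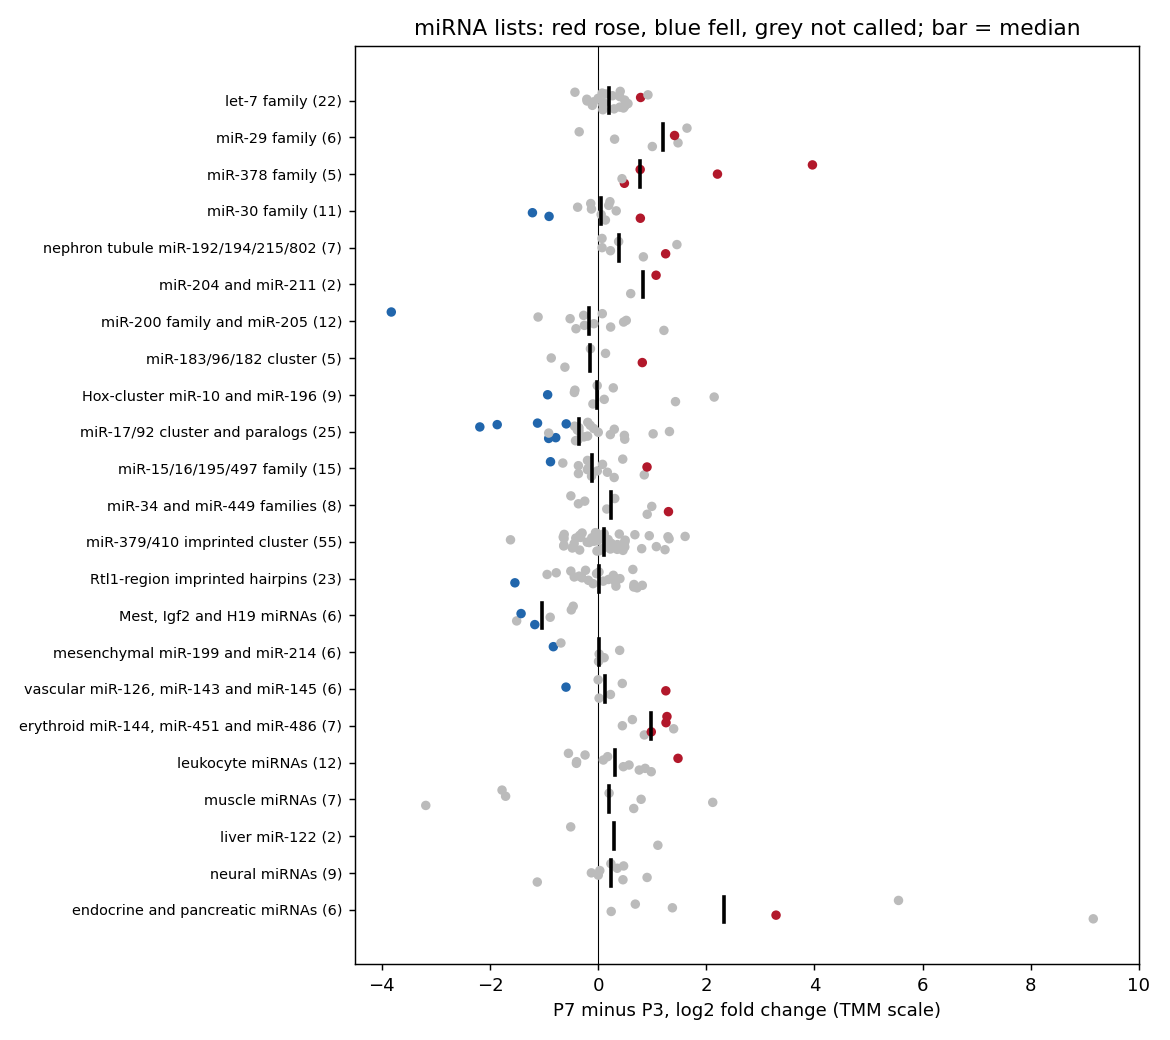
Log2 change from P3 to P7 on the TMM scale for the tested members of each of 23 lists (number tested in parentheses), with red for members that rose, blue for members that fell, grey for members not called and a bar at the median. The endocrine list had the highest median (2.33). It was followed by the miR-29 (1.21), erythroid (0.98), miR-204 and miR-211 (0.84) and miR-378 (0.78) lists. The Mest, Igf2 and H19 list had the lowest (-1.03). With library totals alone all medians move down by about 1.27, and every median but that of the endocrine list falls below 0.

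Outside the lists, abundant miRNAs whose rises were called in all 6 fits that left out 1 library included miR-24-3p and miR-148a-3p. miR-24-3p (hairpins Mir24-1, chr13:63301208-63301275, and Mir24-2, chr8:84208815-84208921, whose reads cannot be separated) measured 586, 551 and 478 CPM at P3 and 1360, 1324 and 1432 CPM at P7 (log2 change 1.35, SE 0.15, adjusted p = 4.44e-05). miR-148a-3p, chosen after its values were seen, measured 4704, 5559 and 4850 CPM at P3 and 11224, 11272 and 9160 CPM at P7 (log2 change 1.07, SE 0.14, adjusted p = 0.000117). The spread within each age was small beside the difference for both. The change of miR-148a-3p was -0.21 with library totals alone and -0.14 in the Pkd2 line, and its difference between the lines was called. Its P3 libraries, WT and KO, all lay below those of P1 and P7. miR-190a-3p, from an intron of Tln2, rose from 0.56, 0.655 and 0.468 CPM to 2.24, 1.87 and 1.73 CPM (log2 change 1.79, SE 0.31, adjusted p = 0.00202). miR-21a-5p, which rises in injured kidneys, measured 4668, 4046 and 2970 CPM at P3 and 6581, 6255 and 6209 CPM at P7 (log2 change 0.71, SE 0.16, adjusted p = 0.0118).

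The largest fitted rises among called miRNAs were less secure. miR-3470b measured 2.13, 2.23 and 2.58 CPM at P3 and 12.6, 4.86 and 107 CPM at P7, and miR-3470a 0.840, 0.655 and 0.749 CPM and then 2.71, 1.25 and 32.1 CPM. P7 replicate 3 set most of both fitted changes (log2 change 4.17, SE 1.13, adjusted p = 0.027, and 4.02, SE 1.15, adjusted p = 0.0329), which were 1.90 (adjusted p = 0.24) and 1.39 (adjusted p = 0.444) without it. Neither was called without any 1 of the P3 replicates (adjusted p 0.0762 to 0.101). The remaining rises of the naming rule were miR-470-5p, miR-677-5p and miR-3068-3p, with log2 changes of 1.52, 1.36 and 1.38; they were called in 3, 0 and 1 of the 6 fits that left out 1 library, and without P7 replicate 3 the value for miR-3068-3p was 0.71.

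Among falls outside the lists, miR-6539, in an intron of Dock5, was the largest. It measured 8.59, 6.77 and 13.7 CPM at P3 and 1.77, 1.74 and 0.960 CPM at P7 (log2 change -2.74, SE 0.33, adjusted p = 8.06e-05). miR-351-3p, from the X-linked miR-322/503 cluster, measured 11.5, 19.4 and 9.57 CPM and then 4.01, 2.49 and 2.45 CPM (log2 change -2.18, SE 0.38, adjusted p = 0.00202). miR-5099 measured 224, 176 and 406 CPM and then 57.7, 60 and 83.3 CPM (log2 change -2.0, SE 0.45, adjusted p = 0.00922). Further falls named by the rule were miR-135a-2-3p (-1.68), miR-615-5p of the HoxC cluster (-1.50), miR-2137 (-1.97), miR-3057-5p (-1.49) and miR-5128 (-1.47). The rule required that the ages did not overlap, so the lack of overlap in all these falls is no added support. Of these, miR-135a-2-3p and miR-615-5p were called in all 6 fits that left out 1 library, miR-2137 in 5 (adjusted p = 0.0583 without P3 replicate 2), miR-3057-5p in 4 (0.0601 without P3 replicate 2 and 0.0845 without P7 replicate 3) and miR-5128 in 1. A group noticed only after the values were seen was the miR-297, miR-466, miR-467 and miR-669 families, many of which lie in an intron of Sfmbt2. It had 10 falls and no rise among 51, against 8.22% of all miRNAs called lower, and a median of -0.60. Of the 10, 6 had exactly the same counts as another miRNA, so the falls are not separate measurements.

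Both arms were tested for 221 hairpins. The arm with fewer counts had the lower change in 122 of them, and the median log2 change was 0.06 for the arm with more counts and -0.14 for the other. Of the major arms 22 rose and 16 fell, and of the minor arms 5 rose and 22 fell. Of all tested miRNAs 6.23% were called higher and 8.22% lower. Minor arms are by definition the rarer ones, and among all calls the falls had a lower median level (7.08 CPM) than the rises (37 CPM). Arm and level were therefore not separated. miR-101a showed the widest split among called pairs: miR-101a-3p, which represses the methyltransferase Ezh2, measured 682, 672 and 927 CPM at P3 and 1433, 1339 and 1875 CPM at P7 (log2 change 1.03, SE 0.26, adjusted p = 0.0189), and miR-101a-5p 7.05, 7.42 and 9.78 CPM and then 2.59, 2.74 and 3.12 CPM (log2 change -1.51, SE 0.25, adjusted p = 0.00131). Without P3 replicate 1 or 2 or P7 replicate 3 the rise of miR-101a-3p was not called (adjusted p = 0.0643, 0.0656 and 0.0546), and with library totals it was -0.20. The other pair called in opposite directions was miR-143, and 7 pairs were called in the same direction, among them both arms of miR-130b, miR-17 and miR-99a.

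Base composition moved with the change. Over the 588 tested miRNAs with a RefSeq mature sequence, Spearman's rho between GC content and the log2 change was -0.28 (a description across miRNAs that share libraries), against -0.10 for the same step in the Pkd2 line (577 miRNAs). Among 104 miRNAs with a GC content under 40% the median change was 0.33, with 11 rises and 3 falls, and among 94 with 60% or more it was -0.32, with 2 rises and 12 falls. All 588 together held 37 rises and 44 falls. A linear GC correction for each library, chosen after seeing the data, called 53 of these 588 miRNAs in place of 78. It kept the calls for miR-378d (4.06), miR-378b (2.19), miR-24-3p (1.44), miR-148a-3p (0.86), miR-25-5p (-1.99), miR-92a-1-5p (-1.92), miR-335-3p (-1.49) and miR-130b-3p (-1.43), and those lost among the miRNAs named here were let-7f-5p (0.38), miR-192-5p (1.18), miR-101a-3p (0.65), miR-144-5p (0.55), miR-21a-5p (0.42), miR-29b-3p (1.09), miR-32-5p (0.95), miR-677-5p (1.06), miR-3068-3p (1.29), miR-615-5p (-0.87), miR-92a-3p (-0.44), miR-196a-1-3p (-1.04), miR-2137 (-1.30), miR-370-3p (-1.16) and miR-5128 (-1.25). A sequence was found for 84.1% of the 44 rises, 75.9% of the 58 falls and 83.3% of all tested miRNAs. The counts of falls by GC content therefore cover only part of the falls and decide nothing about them as a set.

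The P3 to P7 step was set beside the P1 to P3 step, which uses the same P3 libraries. From P1 to P3, 133 of 706 miRNAs (18.8%) were called, 58 higher (8.22%) and 75 lower (10.6%), with 223 (31.6%) at an unadjusted p under 0.05, but 6 were called when the 6 libraries were fitted alone, and P1 replicate 1 stood apart with 1045 CPM of the muscle miR-133a-3p against 36.6 and 12.9 CPM in the other P1 libraries. The count was 58 without that library, and 69, 35 and 45 without P3 replicate 1, 2 and 3. The second step minus the first was called for 86 miRNAs (12.2%), 31 higher (4.39%) and 55 lower (7.79%), with 186 (26.3%) at an unadjusted p under 0.05, and for 42 and 40 without P3 replicate 2 and 3. miR-378d was flat in the first step (log2 change -0.03, SE 0.17, adjusted p = 0.926). In contrast, miR-378b fell by 2.22 from P1 to P3 before its rise, from 16.3, 16 and 16.1 CPM, and the steps differed by 4.42 (SE 0.52, adjusted p = 6.42e-05). miR-497a-5p and miR-101a-5p did the reverse, with 2.37 and 2.0 in the first step and -0.88 and -1.51 in the second (differences -3.25 and -3.51, adjusted p = 3.71e-05 and 6.08e-05). These 4 differences were called in all 9 fits that left out 1 library. Of the P3 to P7 calls, 35 of 44 rises had a negative change from P1 to P3, and 48 of 58 falls a positive one. All P3 WT libraries lay outside the range of the P1 and P7 WT libraries for 44 of the 102, against 85 of all 706 (12%). The second minus first step was called for 57 of the 102, 20 rises and 37 falls. Both steps use the P3 libraries, so these counts are not separate support for either step.

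For some miRNAs the P3 libraries of the line stood apart whatever the genotype. Over WT and KO together, 14 of 706 miRNAs (1.98%) had all 6 P3 libraries above or below all 12 libraries of P1 and P7, and let-7f-5p, miR-148a-3p, miR-378b, miR-101a-5p, miR-351-3p, miR-30c-1-3p, miR-3057-5p and miR-497a-5p were among them. For 10 of the 14 at least 10 of the 18 Pkd2-line libraries lay on the side of the P3 libraries. The share of all 706 miRNAs with this trait was not counted, so nothing is drawn from that count. On the scale of all 36 libraries, miR-101a-5p was at 6.59 to 12.1 CPM in the P3 libraries of the Pkd1 line, at 2.37 to 4.09 CPM in its P1 and P7 libraries, and at 6.36 to 12.2 CPM in the Pkd2 line at every age. The labels give no batch, so age and anything else that separates the P3 libraries of this line cannot be told apart.

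**Figure D4:**
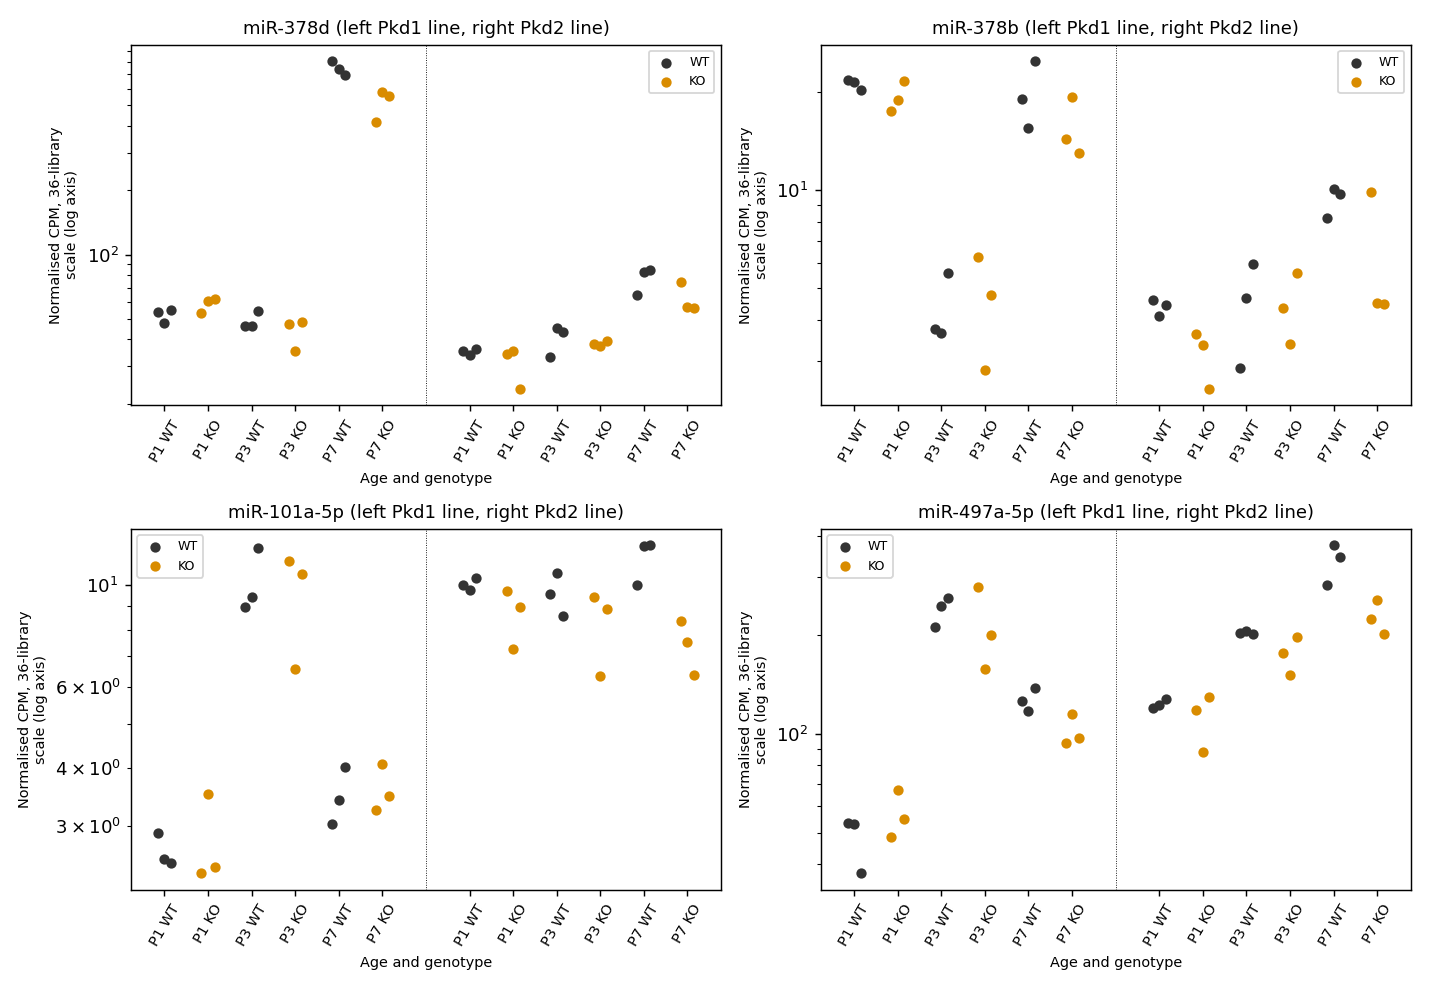
Levels of 4 miRNAs in all 36 libraries (CPM scaled over 36 libraries, log axes), with the Pkd1 line on the left and the Pkd2 line on the right of each panel, WT in black and KO in orange. miR-378d was at 417 to 807 CPM in all 6 P7 libraries of the Pkd1 line and at or below 84.7 CPM in the Pkd2 line, and for miR-101a-5p the P3 libraries of the Pkd1 line sat at the level of the Pkd2 line.

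The same step in WT kidneys of the Pkd2 line, measured in other animals, was smaller in its count of calls: 31 of 746 miRNAs (4.16%), 11 higher (1.47%) and 20 lower (2.68%), with 183 (24.5%) at an unadjusted p under 0.05. This count was 15 without P3 replicate 2 and 16, 6 and 10 without P7 replicate 1, 2 and 3. All 102 miRNAs called in the Pkd1 line were tested there, and 86 changed in the same direction, against 64.9% of all 695 miRNAs tested in both lines. Their median change in that direction was 0.32 in the Pkd2 line and 1.08 in the Pkd1 line, where they were selected. Called in both lines, in the same direction, were 9 miRNAs, 8.82% of the Pkd1-line calls and 29.0% of the Pkd2-line calls: miR-378d and miR-195a-5p rose, and miR-6539, miR-25-5p, miR-301b-5p, miR-135a-2-3p, miR-130b-3p, miR-335-3p and miR-483-5p fell. miR-335-3p, for example, changed by -0.92 in the Pkd2 line (adjusted p = 0.0033) and miR-6539 by -3.23 (adjusted p = 6.03e-05). None was called in opposite directions.

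The difference of the step between the lines was itself called for 15 of 775 miRNAs (1.94%), 4 with a higher (0.516%) and 11 with a lower (1.42%) change in the Pkd1 line, and 109 (14.1%) had an unadjusted p under 0.05. The count was 8, 9 and 6 without Pkd1-line P3 replicate 2, P3 replicate 3 and P7 replicate 3, and 8, 9 and 9 without Pkd2-line P3 replicate 2, P3 replicate 3 and P7 replicate 3. miR-378d led, at 42.1, 58.0 and 54.8 CPM at P3 and 79.7, 91.4 and 103 CPM at P7 in the Pkd2 line (CPM scaled within that line), and the difference of its log2 changes was 2.99 (SE 0.24, adjusted p = 7.7e-10). The change was higher in the Pkd1 line for miR-148a-3p (1.07, SE 0.19, adjusted p = 0.00108) and miR-223-3p (1.57, SE 0.30, adjusted p = 0.00284), whose Pkd2-line changes were -0.14 and -0.23. It was lower for miR-101a-5p (-1.79, SE 0.29, adjusted p = 0.00035), miR-497a-5p (-1.63, SE 0.26, adjusted p = 0.00035) and miR-351-3p (-2.08, SE 0.44, adjusted p = 0.00671), whose Pkd2-line changes were 0.14, 0.60 and -0.26. These 6 differences were called in all 12 fits that left out 1 library. Of the 55 miRNAs of the miR-379/410 cluster none had a called difference, although their median was -1.01 in the Pkd2 line, where 4 fell, and 0.10 in the Pkd1 line. The median difference was 0.96 and the smallest adjusted p of a difference was 0.124. Of the 55, 6 had an unadjusted p under 0.05, all with the higher change in the Pkd1 line. Over all 775 miRNAs that share was 14.1%, 33 with the higher and 76 with the lower change. Nothing is drawn from these 6. The Rtl1-region list also had no called difference, with medians of -0.95 in the Pkd2 line, where 2 fell, and 0.02 in the Pkd1 line.

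**Figure D5:**
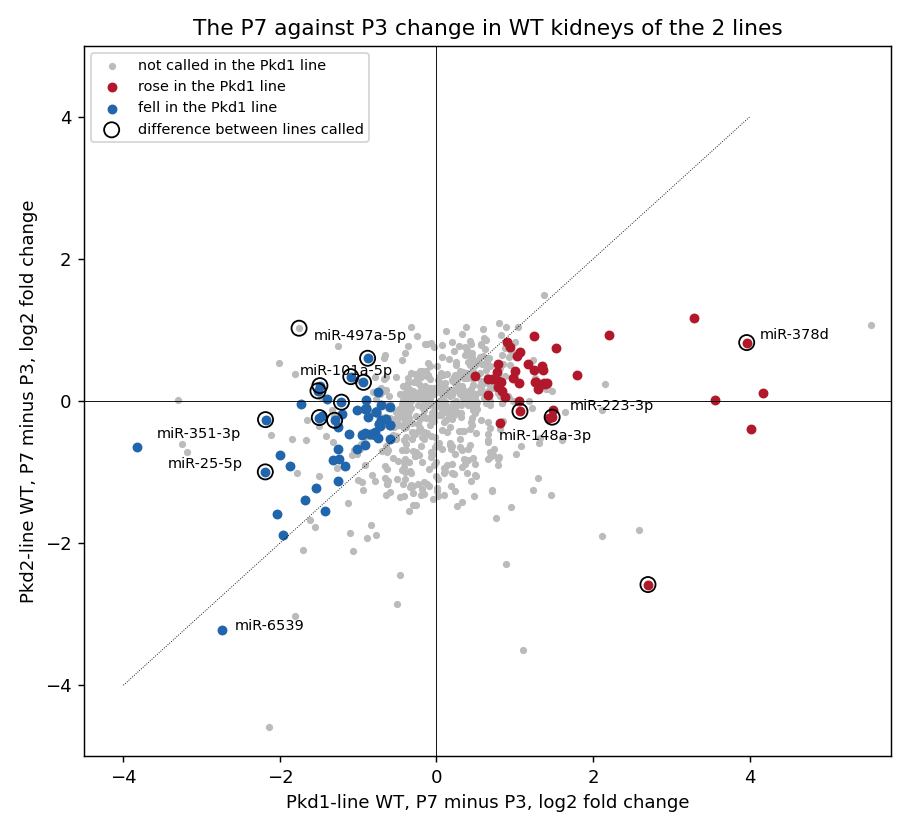
Log2 change from P3 to P7 in WT kidneys of the Pkd1 line (horizontal) and the Pkd2 line (vertical) for 695 miRNAs tested in both, with Pkd1-line rises in red and falls in blue, a circle where the difference between lines was called and a dotted line of equality. Most coloured points lie closer to 0 on the vertical than on the horizontal axis, and miR-6539 lies near the line of equality.

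In KO kidneys of the Pkd1 line, whose libraries are separate from the WT libraries but share their scaling, 97 of the 102 called miRNAs changed in the same direction, against 72.9% of all 706, with a median of 0.90 in that direction. Of the 14 miRNAs whose P3 libraries stood apart in WT and KO together, 11 were among the 102. WT and KO share whatever separates these P3 libraries, so their agreement is not separate support for a change with age. The difference of the step between genotypes was called for 1 miRNA (0.142%), with 65 (9.21%) at an unadjusted p under 0.05 and 12 calls by DESeq2. That miRNA was miR-21a-5p, which went from 3440, 4803 and 4299 CPM to 18502, 16963 and 16497 CPM in KO and so rose more than in WT (difference 1.35, SE 0.23, adjusted p = 0.0211). It was called in 3 of 12 fits that left out 1 library, those without KO P3 replicate 1 or 2 or WT P3 replicate 3, with adjusted p up to 0.173 in the others. For miR-378d the KO libraries measured 39.4, 27.0 and 39.2 CPM at P3 and 369, 449 and 494 CPM at P7, and no difference between genotypes in its step was called.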

How the data were processed

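Small RNA libraries were prepared from Trizol-extracted total RNA of whole kidneys. The authors removed adaptors, discarded reads of 17 bases or fewer and used miRDeep2 to count the rest against miRBase release 21 and the mouse genome mm10; its version is not given in the sources used here. The submitters' processing notes also name CASAVA 1.8.2 and HTSeq. The deposited values are raw read counts, 1 row per mature miRNA and precursor (2061 rows), with no normalization by the authors. Where 83 mature miRNAs had several rows, the row with the highest total over all 36 libraries was used.

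The 18 Pkd1-line libraries were fitted together in edgeR 4.0.16 (R 4.3.3) with TMM scaling, 1 term per group and the quasi-likelihood F-test, with Benjamini-Hochberg adjustment over the 706 miRNAs tested. The standard error (SE) is the size of the log2 fold change divided by the square root of F. The line difference was fitted over 36 libraries. In simulated counts of the comparison the test recovered 33.7% of changes of 1 and 80.4% of changes of 2 on the log2 scale over 689 miRNAs, and 1.77% of its 113 calls were false. These counts were drawn independently for each miRNA and library, with as many rises as falls. Shifts of many miRNAs together in a library were absent, so the share of false calls in the real data was not estimated. Counting error only is covered by the floor of 3 counts. Replicates of an age differed by far more than sampling noise (chi-square per degree of freedom of at least 38.0), so each was kept as a separate library.

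miRNAs and lists were chosen with earlier results of these data known. Named were up to 14 rises and 14 falls by size among called miRNAs averaging 10 or more counts whose ages did not overlap, 2 called members of each list or else its most abundant, the 6 most abundant miRNAs, and up to 3 per difference of steps; the rest were chosen after their values were seen. Alternatives were RLE factors, library totals, miR-10 left out, no filter, DESeq2 1.42.0, the compared libraries alone, a replicate block, leaving out each library, summed precursor rows and, added after seeing the data, a GC correction. Loci come from GENCODE vM21 (GRCm38), the authors' build. The targeted gene, Pkd1, gives a messenger RNA and has no row among these miRNAs, so genotypes rest on the labels. The tissue also rests on the labels, since no other tissue was compared. miR-10b-5p, miR-30a-5p and miR-192-5p were among the abundant miRNAs.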

Additional observations from a re-analysis of the deposited data

Results flagged for a closer look

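The change from P3 to P7 in WT kidneys differed between the Pkd1 and the Pkd2 line for 15 miRNAs by a test of the difference itself (edgeR's quasi-likelihood test over 36 libraries, adjusted p under 0.05). As Pkd1-line minus Pkd2-line log2 changes, miR-378d differed by 2.99, miR-148a-3p by 1.07, miR-223-3p by 1.57 and miR-3059-5p by 5.20. The last is a rare miRNA whose levels overlapped between ages in the Pkd1 line. The change was lower in the Pkd1 line for miR-101a-5p (-1.79), miR-497a-5p (-1.63), miR-351-3p (-2.08), miR-30c-1-3p (-1.35), miR-3057-5p (-1.85), miR-615-5p (-1.41), miR-1943-5p (-1.16), miR-669n (-2.91), miR-669f-5p (-1.56), miR-25-5p (-1.34) and miR-196a-1-3p (-1.33). miR-669n was at or below 0.73 CPM in the Pkd1-line WT libraries at P3 and P7 and was not called in the Pkd1 line alone. Without 1 library the difference for miR-25-5p was called in 4 of 12 fits and that for miR-30c-1-3p in 8 of 12.

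The step differed between KO and WT kidneys of the Pkd1 line for 1 miRNA, miR-21a-5p, by 1.35 on the log2 scale. No group had 4 or more libraries, so no single library was tested as standing apart.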

How the results depend on the processing

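The count of P3 to P7 calls, 102, was 276 with library totals alone (4 higher, 272 lower), 53 with no filter on low counts, 54 with the 6 compared libraries alone and 53 with the GC correction (chosen after seeing the data; 78 over the same miRNAs without it), and 48 to 78 without 1 library. RLE factors, DESeq2, summed rows and miR-10 left out gave 104, 129, 106 and 107. The Pkd2-line count of 31 was 14 with library totals, 76 with DESeq2 and 6 to 25 without 1 library. The line difference, 15, was 6 with library totals and 6 to 20 without 1 library. The KO minus WT difference, 1, was 0 with library totals, without the filter, with the 12 libraries alone and with the replicate block, 12 with DESeq2 and 0 to 3 without 1 library. The P1 to P3 count, 133, was 8 with library totals, 6 with the compared libraries alone and 35 to 128 without 1 library; the second minus first step, 86, was 249, 35 and, with no filter, 51, and 40 to 90 without 1 library. The miR-10 share difference ran from 12.3 to 27.6 points without 1 library. Signs turned with library totals alone for let-7f-5p (-0.45), miR-133a-3p (-0.57), miR-181a-5p (-0.78), miR-182-5p (-0.44), miR-195a-5p (-0.31), miR-211-5p (-0.18), miR-21a-5p (-0.51), miR-27b-3p (-0.82), miR-30a-5p (-0.50), miR-9-5p (-0.97), miR-148a-3p (-0.21), miR-101a-3p (-0.20), miR-378c (-0.50), miR-378a-3p (-0.81) and miR-144-5p (-0.23), with the GC correction for miR-9-5p (-0.090), and without 1 library for miR-122-5p (range -2.27 to 1.25, positive without P3 replicate 2 or, at 0.04, P7 replicate 3) and miR-411-5p (range -0.16 to 0.057, positive without P3 replicate 3 or, at 0.02, P7 replicate 1); none of these was called under that setting. The cause of these shifts was not tested beyond the scaling itself. Same-numbered P3 and P7 WT libraries did not all deviate together (correlations -0.02, 0.30 and 0.52; P3 replicates 1 and 2 correlated best with P7 replicates 2 and 1), so the numbers were not taken to pair the samples; the replicate block gave 70 calls (32 higher, 38 lower), 68 of them among the 102, and 27, 13, 96 and 75 for the Pkd2 line, the line difference, P1 to P3 and the second minus first step. With 3 libraries an age, changes of 2-fold were often missed in simulated counts.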
